A study of Mus musculus with 24 samples.

Results

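The proteasome is the protease complex that degrades ubiquitin-tagged proteins, and its transcripts were followed here in MIN6 cells, an insulin-secreting line derived from a mouse insulinoma. The genes were taken by symbol: every row of the count table named Psma, Psmb, Psmc, Psmd, Psme, Psmf or Psmg with a number, or Pomp, leaving out symbols marked as pseudogenes. This gave 47 of the 12310 genes in the table, and all 47 were among the 12306 genes that passed the filter on low counts. One of them, Psmc3ip, is known as HOP2, a meiotic recombination factor that shares only the stem of its symbol with the proteasome, and the other 46 are proteasome subunits, regulators and assembly factors. RNA sequencing counted transcripts in 12 libraries of MIN6 cells that received verapamil at 50 µM for 24 h, and in 12 of untreated control cells, all wild type by their labels and cultured in 5.6 mM glucose. Verapamil is a blocker of L-type calcium channels. The libraries fall into 4 experiment sets with 3 libraries per group, a grouping inferred from the leading digit of each sample's description and stated outright by none of the sources.

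The core particle is a barrel of stacked rings, with alpha subunits in the outer rings and beta subunits in the inner ones, where some of the beta subunits carry the protease sites. Proteins reach it through the regulatory particle, whose base holds the ATPases that unfold them and whose lid holds the enzyme that removes ubiquitin. Other caps, the PA28 and PA200 activators, can open the barrel in place of the regulatory particle, and a set of chaperones builds the rings. In mammalian cells the transcription factor encoded by Nfe2l1 is known to raise genes of the core and regulatory particles together when proteasome activity is short. Beta cells make large amounts of secretory protein, and the degradation of misfolded proinsulin uses the proteasome.

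Total counts ranged from 21840159 to 44806556 in verapamil libraries and from 12590476 to 32360171 in control libraries. Of 11 beta-cell markers, 10 were measured, and they summed to 4740–6570 CPM (counts scaled to library size with TMM factors) in verapamil libraries and 5870–7670 CPM in control libraries, with 6 lower and 1 higher by edgeR's test. None of the 10 immune cell markers listed is among the genes analysed here, and of 13 markers of other pancreatic cells only Gcg and Sox9 are. These 2 summed to 177–334 CPM in verapamil libraries and 176–201 CPM in control libraries. Their part in the results was not tested. In bulk RNA, fewer cells of a type and less RNA per cell cannot be told apart. The verapamil libraries also differed from control libraries along transcript GC content and length, as described beside the results.

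Without a correction for transcript GC content and length, transcripts of the proteasome were mostly modestly higher after verapamil. Most of these calls were lost in the corrected fits described below. Of the 47 genes, 26 (55.3%) were higher, 5 (10.6%) were lower and 16 did not pass the test (edgeR's quasi-likelihood test, Benjamini-Hochberg adjustment over all genes tested, threshold 0.05). Over all genes tested, 31.2% were higher and 31.6% lower. The median log2 fold change of verapamil over control was 0.20 for the 47 genes, within a range of -1.01 to 0.58, and 0.00 for all genes tested. With the GC and length offset described below, these medians were -0.028 and -0.076. With the covariates they were -0.078 and 0.032. Without Psmc3ip, 26 of 46 genes were higher and 4 lower. No gene of the 47 had all 12 verapamil libraries above every control library, nor all 12 below. Across all genes tested, 4.95% were above and 5.18% below in this way. The test takes all libraries as separate samples, but whether the 3 libraries per group within a set were grown independently is described in conflicting ways, so its p-values may measure technical spread in part. With counts summed to 4 values against 4, 18 of the 47 genes were higher and 1, Psmc3ip, was lower by the same test, against 24.4% and 17.3% of all genes. The calls of all 4 proteasome genes that were lower over single libraries were lost in that fit, with edgeR adjusted p of 0.0916 for Psme4, 0.0852 for Psmc6, 0.0642 for Psmd1 and 0.114 for Psmd14.

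**Figure D1:**
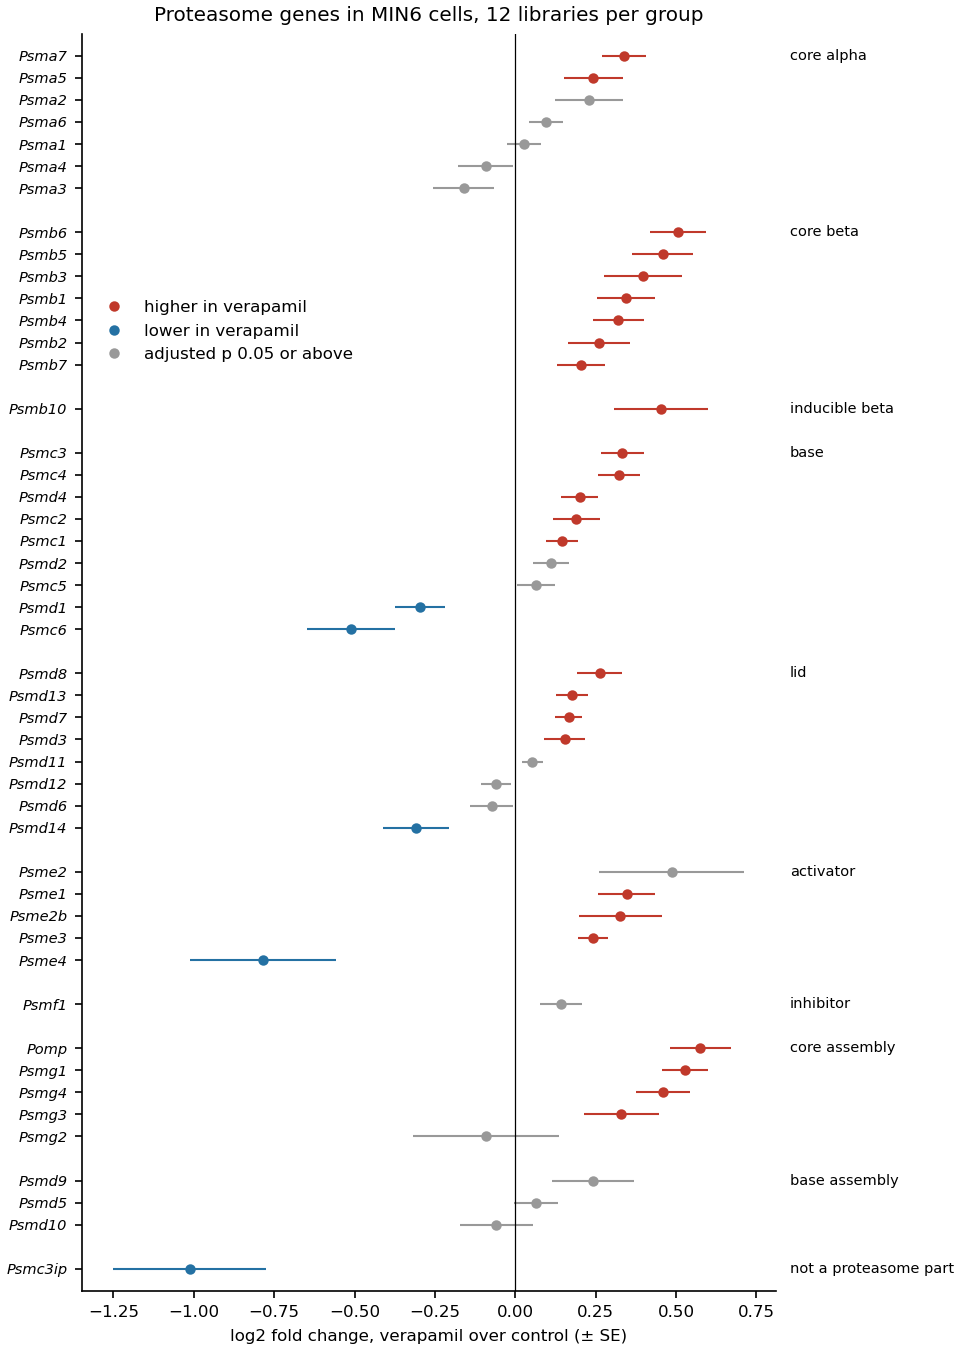
Log2 fold change of verapamil over control for the 47 genes, grouped by their place in the proteasome, with points at the edgeR estimate and bars of 1 standard error (12 libraries per group). Red points rose and blue points fell at an adjusted p under 0.05, all 7 core beta subunits are red, and Psme4 and Psmc3ip lie farthest to the left.

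Counts per class, here and below, are to be read beside the 31.2% higher and 31.6% lower over all genes tested. The core particle had 9 of 14 constitutive subunits (64.3%) higher, 2 in the alpha ring and 7 in the beta ring, and none lower. The alpha subunits form the gate of the barrel, and 2 of 7 (28.6%) were higher, a share near that over all genes. Their median log2 fold change was 0.10. Psma7, the alpha4 subunit (chr2:180036374-180042433 on GRCm38), had a lowest, median and highest level of 336.9, 437.6 and 551.9 CPM in verapamil libraries and 325.3, 352.7 and 376.7 CPM in control libraries. In 9 of the 12 verapamil libraries its level lay above every control library, and the remaining ones overlapped the controls. Its log2 fold change was 0.34 ± 0.07 (SE), or 1.26-fold, with an edgeR adjusted p of 0.000214. Psma5, the alpha5 subunit, was 1.18-fold higher (log2 0.24, edgeR adjusted p 0.0238), and this call was lost without verapamil replicate 5. At the other end, Psma3, the alpha7 subunit, spanned 36.0, 45.6 and 66.1 CPM in verapamil libraries and 44.6, 55.0 and 63.9 CPM in control libraries. The groups overlapped at both ends, and the log2 fold change of -0.16 ± 0.09 did not pass (edgeR adjusted p 0.138). The remaining alpha subunits, Psma1, Psma2, Psma4 and Psma6, lay between -0.09 and 0.23 on the log2 scale, and none passed.

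All 7 constitutive beta subunits were higher in verapamil cells, by log2 fold changes of 0.21 to 0.51 (median 0.34). Psmb6, Psmb7 and Psmb5 encode the beta1, beta2 and beta5 subunits with caspase-like, trypsin-like and chymotrypsin-like activity. Psmb6 had 68.5, 93.0 and 122 CPM as the lowest, median and highest level in verapamil libraries, against 60.2, 65.7 and 69.7 CPM in control libraries. In 10 of 12 verapamil libraries it was above every control library. Its log2 fold change was 0.51 ± 0.09, or 1.42-fold, with an edgeR adjusted p of 3.68e-05. Psmb5 was 1.37-fold higher (log2 0.46, edgeR adjusted p 0.000287), at 57.4 ± 12.2 CPM in verapamil libraries and 41.8 ± 4.02 CPM in control libraries (SD, n = 12 each). Psmb7 had the smallest rise of the ring, at 257, 335 and 425 CPM in verapamil libraries and 268, 281 and 322 CPM in control libraries. Of its verapamil libraries, 7 were above and 2 below every control library, with a log2 fold change of 0.21 ± 0.07 (edgeR adjusted p 0.0194). The beta subunits without a protease site, Psmb1, Psmb2, Psmb3 and Psmb4, had log2 fold changes of 0.34, 0.26, 0.40 and 0.32. The call of Psmb2 was lost without verapamil replicate 5.

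Interferon-inducible beta subunits replace the constitutive protease subunits in the immunoproteasome, and Psmb10, which takes the place of Psmb7, was the one measured. It had 2.39, 3.78 and 5.75 CPM in verapamil libraries and 1.53, 2.97 and 3.42 CPM in control libraries, from 21 to 125 counts per library. Verapamil libraries exceeded every control library in 7 of 12 cases. Its log2 fold change was 0.45 ± 0.15 (edgeR adjusted p 0.00981). Per kilobase of transcript, Psmb10 was at a median of 0.924% of the level of Psmb7 in verapamil libraries and 0.936% in control libraries, so the inducible form stayed rare beside the constitutive one in both groups. Irf1, an interferon-response factor known to drive the inducible subunits, had a log2 fold change of -0.05 that did not pass (edgeR adjusted p 0.74).

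Levels within the core particle were far apart although the barrel holds its subunits in equal number. Per kilobase of reference transcript, they ranged from 17.3 CPM (Psma3) to 481 CPM (Psma7) in verapamil libraries and from 19.4 CPM (Psma3) to 381 CPM (Psma7) in control libraries. These levels depend on the reference transcript chosen, which is 2846 bases for Psma3 and 914 bases for Psma7, and the part of that choice was not tested. Reads of near-identical copies may be assigned to either. Psma3, for example, has a processed pseudogene in the table, Gm13835, identical to it over 665 aligned bases, which averaged 53.0 CPM in verapamil libraries and 51.8 CPM in control libraries. Psma3 itself averaged 49.3 CPM in verapamil libraries and 55.1 CPM in control libraries. In all, 18 pseudogene copies of 12 of the genes were in the table, of which 8 were higher and none lower, beside 31.2% and 31.6% of all genes tested. With their counts added to the parent genes, 26 of the 47 genes were again higher and 5 lower, and all 31 calls kept their direction.

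Of the 17 regulatory particle genes taken by symbol, 9 were higher and 3 lower, with a median log2 fold change of 0.15. With counts summed per set, 5 were higher and the 3 lower genes no longer passed. Subunits of this particle under other symbols, such as Adrm1, were left out of these counts. Adrm1 is reported below with the proteasome-associated genes. In the base, the ATPase genes Psmc1, Psmc2, Psmc3 and Psmc4 and the ubiquitin receptor gene Psmd4 were higher, by 0.15, 0.19, 0.33, 0.32 and 0.20 on the log2 scale. Psmc3, the Rpt5 ATPase, had 164, 214 and 250 CPM in verapamil libraries and 144, 170 and 185 CPM in control libraries. The highest control library was exceeded by 9 of the 12 treated ones (log2 fold change 0.33 ± 0.07, edgeR adjusted p 0.000156). Psmc3 overlaps Slc39a13 on the opposite strand by 215 exon bases, and Psmb7 and Psmd13 overlap Nek6 and Sirt3 likewise. The strand setting of the counting is not given, so reads could be shared. The call of Psmc2 was lost without verapamil replicate 5, replicate 6 or the library of column V11.

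Psmc6 moved the other way. This gene encodes the Rpt4 ATPase, a member of the same ATPase ring as Psmc3. Its level was 39.9, 88.4 and 113 CPM in verapamil libraries and 106, 116 and 123 CPM in control libraries. In 10 of 12 verapamil libraries it lay below every control library. The log2 fold change was -0.51 ± 0.14 (edgeR adjusted p 0.00273). Psmd1, the Rpn2 scaffold of the base, averaged 237 ± 41.3 CPM in verapamil libraries and 291 ± 19.7 CPM in control libraries (SD, n = 12 each) and fell by 0.30 on the log2 scale (edgeR adjusted p 0.00239). The other scaffold, Psmd2, and the ATPase gene Psmc5 had log2 fold changes of 0.11 and 0.07 that did not pass.

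In the lid, 4 of the 8 genes taken by symbol were higher. Psmd8, encoding Rpn12, had 99.3, 127 and 160 CPM in verapamil libraries and 99.0, 104 and 113 CPM in control libraries, with 8 of 12 verapamil libraries above every control (log2 fold change 0.26 ± 0.07, edgeR adjusted p 0.00249). Psmd13 (Rpn9), Psmd7 (Rpn8) and Psmd3 (Rpn3) rose by 0.18, 0.17 and 0.15 on the log2 scale. The call of Psmd3 was lost in 11 of the 24 fits that left out a single library, among them the one without verapamil replicate 8 (log2 0.12). Psmd14 encodes Rpn11, the deubiquitinase that cuts ubiquitin from arriving proteins and the partner of Rpn8. It had 51.5, 93.2 and 125 CPM in verapamil libraries and 104, 113 and 122 CPM in control libraries. In 8 verapamil libraries it was below every control library and in 1 above (log2 fold change -0.31 ± 0.10, edgeR adjusted p 0.0111). Psmd6, Psmd11 and Psmd12, encoding Rpn7, Rpn6 and Rpn5, stayed between -0.07 and 0.05 and did not pass.

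**Figure D2:**
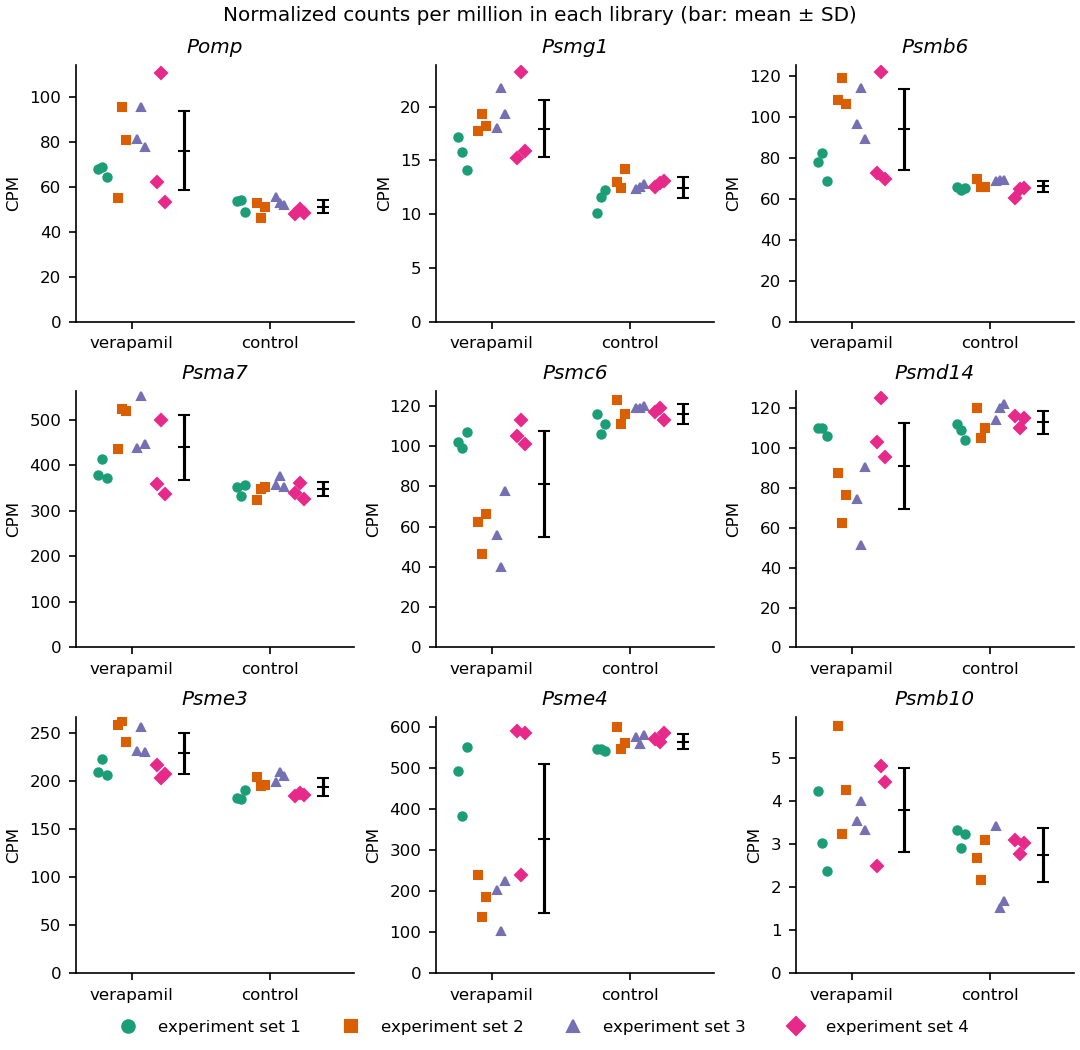
TMM-normalized CPM of 9 proteasome genes in each verapamil and control library, with marker shape and colour giving the experiment set and the black bar giving mean ± SD over 12 libraries. Psme4 lies between 102 and 240 CPM in 7 verapamil libraries and between 543 and 600 CPM in the control libraries, and Psmg1 overlaps between the groups in a single verapamil library.

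Among the activators, 3 of the 4 PA28 genes were higher and the PA200 gene was lower, a fall not called with counts summed per set. Psme1, Psme2 and Psme2b encode the alpha and beta subunits of the cytoplasmic PA28 ring, and Psme3 encodes the nuclear PA28 gamma. Psme1 had 11.4, 16.9 and 19.5 CPM in verapamil libraries, against 10.9, 12.8 and 14.9 CPM in control libraries, and 7 of 12 verapamil libraries were above every control (log2 fold change 0.35 ± 0.09, edgeR adjusted p 0.00176). Psme3 had 204, 227 and 263 CPM in verapamil libraries and 182, 193 and 210 CPM in control libraries. The rise of Psme3, 0.24 ± 0.05 on the log2 scale (edgeR adjusted p 0.000113), was the activator call with the smallest standard error, and 8 of 12 verapamil libraries lay above every control library.

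Psme2 and Psme2b are 99.37% identical over 794 aligned bases, and their reads could not be counted apart with certainty. Psme2 had 15.2, 33.8 and 57.5 CPM in verapamil libraries and 7.85, 29.2 and 35.3 CPM in control libraries (log2 fold change 0.49 ± 0.23, edgeR adjusted p 0.0639). Psme2b had 23.7, 33.3 and 45.0 CPM in verapamil libraries and 20.0, 24.4 and 41.5 CPM in control libraries (log2 fold change 0.33 ± 0.13, edgeR adjusted p 0.0323), a call lost in 10 of the fits without a single library. In the 3 control libraries of set 4, Psme2 was low (11.5, 7.85 and 13.9 CPM) where Psme2b was high (40.1, 41.5 and 37.0 CPM). Summed as 1 gene, they averaged 70.2 ± 13.0 CPM in verapamil libraries and 53.0 ± 3.24 CPM in control libraries (SD, n = 12 each). The sum had a log2 fold change of 0.41 ± 0.08 (edgeR adjusted p 0.000154) and was positive in each set, at 0.22, 0.51, 0.47 and 0.39. This sum was formed after the values had been seen.

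Psme4 encodes PA200, a large nuclear activator (chr11:30771726-30880361), and had the largest decrease of the 46 proteasome genes. It had 102, 240 and 592 CPM in verapamil libraries and 543, 562 and 600 CPM in control libraries. In 9 of 12 verapamil libraries it was below every control library, while 3 lay among the controls. The mean was 328 ± 182 CPM with verapamil and 565 ± 18.1 CPM in control cells (SD, n = 12 each), and the log2 fold change was -0.79 ± 0.23 (edgeR adjusted p 0.00455). Per kilobase, Psme3 was at 86.9% to 613% (median 229%) of Psme4 in verapamil libraries and at 77.3% to 91.6% (median 83.9%) in control libraries. Psmf1, the inhibitor PI31, had 55.8, 73.3 and 94.0 CPM in verapamil libraries and 62.4, 64.0 and 74.4 CPM in control libraries, and its log2 fold change of 0.14 did not pass (edgeR adjusted p 0.0631).

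The chaperones that build the core particle held the 2 largest increases of all 47 genes. Pomp, the maturation factor UMP1 that leaves the barrel as its protease sites are activated (chr5:147860461-147876456), had 53.2, 73.4 and 111 CPM in verapamil libraries and 46.0, 51.3 and 55.5 CPM in control libraries. The highest control library was exceeded by 10 of the 12 treated ones. The log2 fold change was 0.58 ± 0.10, or 1.49-fold, with an edgeR adjusted p of 2.04e-05. Psmg1, or PAC1, which starts the alpha ring together with PAC2, had 14.1, 17.9 and 23.2 CPM in verapamil libraries and 10.1, 12.5 and 14.2 CPM in control libraries. With 11 of 12 verapamil libraries above every control, it came closest to full separation. Its log2 fold change was 0.53 ± 0.07, with the smallest adjusted p of the 47 genes (adjusted p 1.61e-06, edgeR).

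Psmg4 and Psmg3, encoding PAC4 and PAC3, were higher by 0.46 and 0.33 on the log2 scale. Psmg2, the partner of Psmg1, had 1.93, 4.74 and 9.81 CPM in verapamil libraries and 3.28, 5.84 and 8.77 CPM in control libraries, and its log2 fold change of -0.09 ± 0.23 did not pass. None of the 3 base chaperone genes passed. Psmd9, or p27, had 3.24, 4.35 and 6.46 CPM in verapamil libraries and 2.76, 3.67 and 5.87 CPM in control libraries (log2 fold change 0.24, edgeR adjusted p 0.102). Psmd10, or gankyrin, had 1.93, 2.68 and 4.07 CPM in verapamil libraries and 1.87, 2.84 and 3.40 CPM in control libraries (log2 fold change -0.06), and Psmd5 had a log2 fold change of 0.07. Psmc3ip was at 0.0966, 1.00 and 1.75 CPM in verapamil libraries and 0.917, 1.92 and 2.94 CPM in control libraries, from 2 to 88 counts (log2 fold change -1.01 ± 0.24, edgeR adjusted p 0.000829). It shares 385 exon bases with Mlx on the opposite strand, and Mlx was higher (log2 fold change 0.42).

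To see whether these effects were shared, each experiment set was fitted alone, with 3 libraries per group. In set 1, 5 genes were higher and 1 lower, beside 13.7% and 14.0% of all genes tested. In set 2, 24 were higher and 6 lower, beside 26.3% and 30.9%. In set 3, 12 were higher and 5 lower, beside 19.9% and 23.4%. In set 4, no gene was called, beside 0.317% and 0.0894%; by an unadjusted edgeR p under 0.05, 3 were higher and none lower. Of the 31 genes called over all libraries, 29 had the same direction in all 4 sets. The exceptions were Psmd3, at -0.04 in set 1, and Psme2b, at -0.09 in set 4. The sets make up the fit that called these genes, so this agreement is partly built in. Its share over all called genes was not computed.

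Pomp had log2 fold changes of 0.35, 0.62, 0.68 and 0.63 in sets 1 to 4, and Psmg1 had 0.47, 0.47, 0.66 and 0.50. Both were called in sets 1, 2 and 3. The decreases of Psme4, Psmc6, Psmd1 and Psmd14 were largest in sets 2 and 3, whereas Psmc3ip had -1.26, -1.39, -0.60 and -0.71 in sets 1 to 4. Psme4 had log2 fold changes of -0.21, -1.63, -1.69 and -0.28 in sets 1 to 4, and Psmc6 had -0.12, -1.02, -1.04 and -0.13. Psmd1 had -0.06, -0.56, -0.58 and -0.06, and Psmd14 had -0.01, -0.58, -0.71 and -0.07. An interaction of experiment set and treatment passed for these 4 genes and for no other of the 47, with edgeR adjusted p of 0.0164 for Psme4, 0.00829 for Psmc6, 0.0388 for Psmd1 and 0.0485 for Psmd14. Across all genes tested, 9.72% passed it, a share near that among the 47 genes. These 4 are all of the proteasome genes that were called lower over all libraries.

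**Figure D3:**
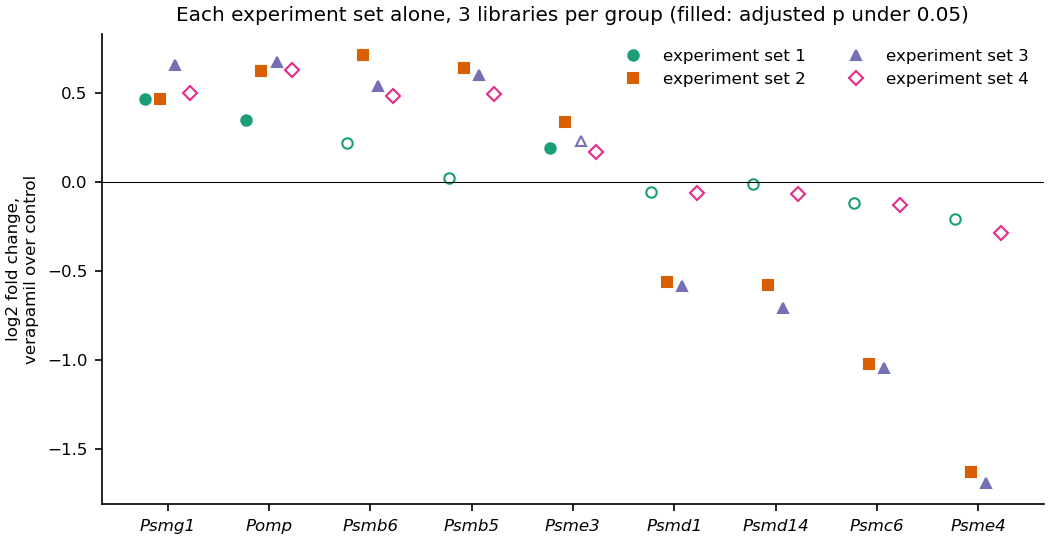
Log2 fold change of verapamil over control in each experiment set fitted alone (3 libraries per group), with filled markers at an adjusted p under 0.05. Psmg1 and Pomp lie above 0 in every set, whereas Psmd1, Psmd14, Psmc6 and Psme4 lie far below 0 in sets 2 and 3 and at -0.01 to -0.28 in sets 1 and 4.

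Within set 4 the libraries differed. The library in column V11 stood apart from the other 2 verapamil libraries, with the beta subunits at a median of 0.76 above the mean of the controls (log2), against 0.01 and 0.07. It lay at 0.83 for the core chaperones, against 0.16 and 0.06. Without it, 24 of the 47 genes were higher and 6 lower, and Psma1 had a log2 fold change of -0.01 in place of 0.03. In set 1 the median over the beta subunits was -0.05, 0.17 and 0.05 in the 3 verapamil libraries, and in sets 2 and 3 it was 0.30 to 0.68. Over the control libraries of all sets it was -0.07 to 0.16.

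**Figure D4:**
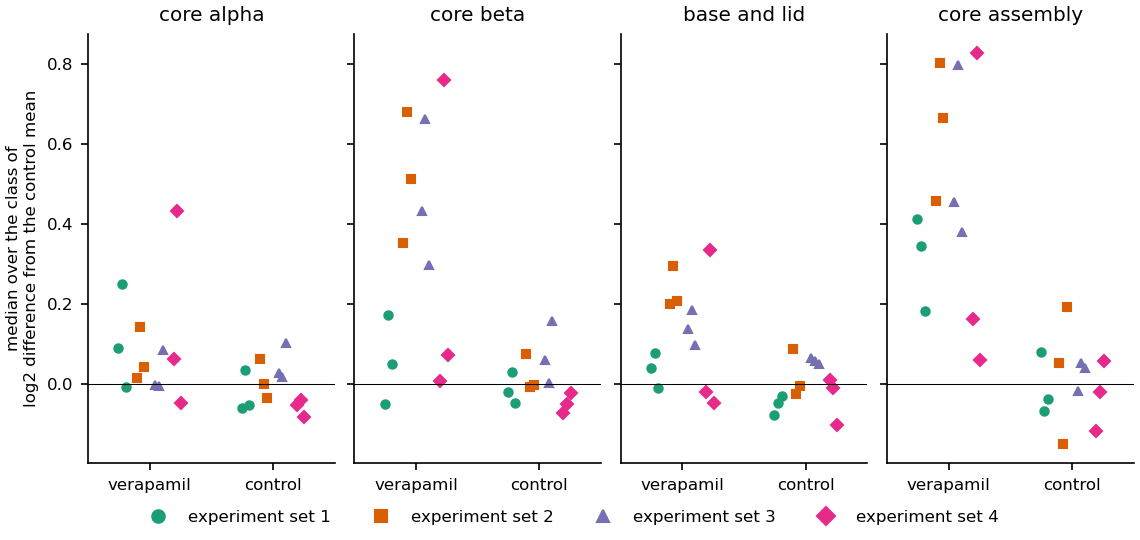
Median over the genes of a class of the log2 difference from the control mean, one point per library, for verapamil and control libraries, with experiment set by colour and shape. The core assembly class lies at 0.06 to 0.83 in verapamil libraries and -0.15 to 0.19 in control libraries, and the highest verapamil point in set 4 is the library in column V11.

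The size and sign of these changes followed properties of the transcripts. In verapamil libraries, the deviation of a gene from the control mean correlated with the GC content of its reference transcript, with a mean r over the libraries of 0.20, 0.57, 0.58 and 0.17 in sets 1 to 4, against 0.03, 0.02, 0.00 and -0.03 in control libraries. The correlation with log2 transcript length averaged -0.20, -0.35, -0.36 and -0.25 in verapamil libraries, against -0.03, 0.02, -0.05 and 0.08 in control libraries. The control libraries form the mean from which deviations were taken, which holds their averages near 0. For GC content, single libraries ranged from 0.036 to 0.655 with verapamil and from -0.199 to 0.18 in controls. For length they ranged from -0.614 to -0.053 and from -0.142 to 0.131, so the groups overlapped in both. The library in column V11 had the strongest length trend, at -0.61. Its GC correlation was 0.38, against 0.04 and 0.08 in the other verapamil libraries of set 4. The 47 genes are shorter (median 1430 bases) than all genes tested (median 2844 bases). Across the 47 genes, which are not independent of each other, the log2 fold change had a Spearman rho of -0.51 with length and 0.68 with GC content. The rho with length was -0.42 across 12304 genes of the whole table, so this relation is not particular to the 47 genes. Psme4 is the longest of them (6491 bases, 43.9% GC) and Psmc6 has the lowest GC content (37.0%), whereas Psmb6 (798 bases, 55.8% GC) and Psmg4 (555 bases, 55.1% GC) are short and GC-rich.

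Both alternatives that take this trend into account changed most of the calls. With the trend of each library as an offset, 12 of the 47 genes were higher and 8 lower, against 20.7% and 34.6% of all genes. Across the 47 genes, the log2 fold change then had a Spearman rho of -0.41 with GC content and 0.23 with length. Among these genes the relation was thus turned around and not removed. In that fit 7 of the 31 calls were kept, those of the genes Psmb1, Psmd1, Psme3, Psme4, Pomp, Psmg1 and Psmc3ip. With the correlations as covariates, none was higher and 5 were lower, against 11.1% and 8.35% of all genes, and 1 call was kept, that of Psmc3ip. The other 4 lower genes were Psmb7, Psmc5, Psmd3 and Psmf1. By an unadjusted edgeR p under 0.05 in that fit, 1 gene, Psmg1, was higher and 7 were lower. All 7 beta subunits had a log2 fold change of -0.22 to -0.02 with the covariates. Pomp passed with the offset (log2 0.41, edgeR adjusted p 2.2e-05) and had 0.07 with the covariates (edgeR adjusted p 0.659). Psmg1 had 0.17 with the offset (edgeR adjusted p 0.00928) and 0.22 with the covariates (edgeR adjusted p 0.0908). Psme3 had 0.14 (edgeR adjusted p 0.00176) and 0.11 (edgeR adjusted p 0.227). Psme4 kept its fall with this offset (-0.39, edgeR adjusted p 0.00936) and had 0.27 with the covariates (edgeR adjusted p 0.249). With an offset on means over all transcripts of a gene, its call was lost. No activator gene was lower in that fit, and the lowest log2 fold change of the class was -0.22. Psmc6 turned to 0.15 with the offset (edgeR adjusted p 0.00628) and had -0.10 with the covariates. The trend is stronger in most verapamil libraries than in control libraries. Its share of a difference between the groups and an effect of verapamil on these genes therefore cannot be told apart.

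**Figure D5:**
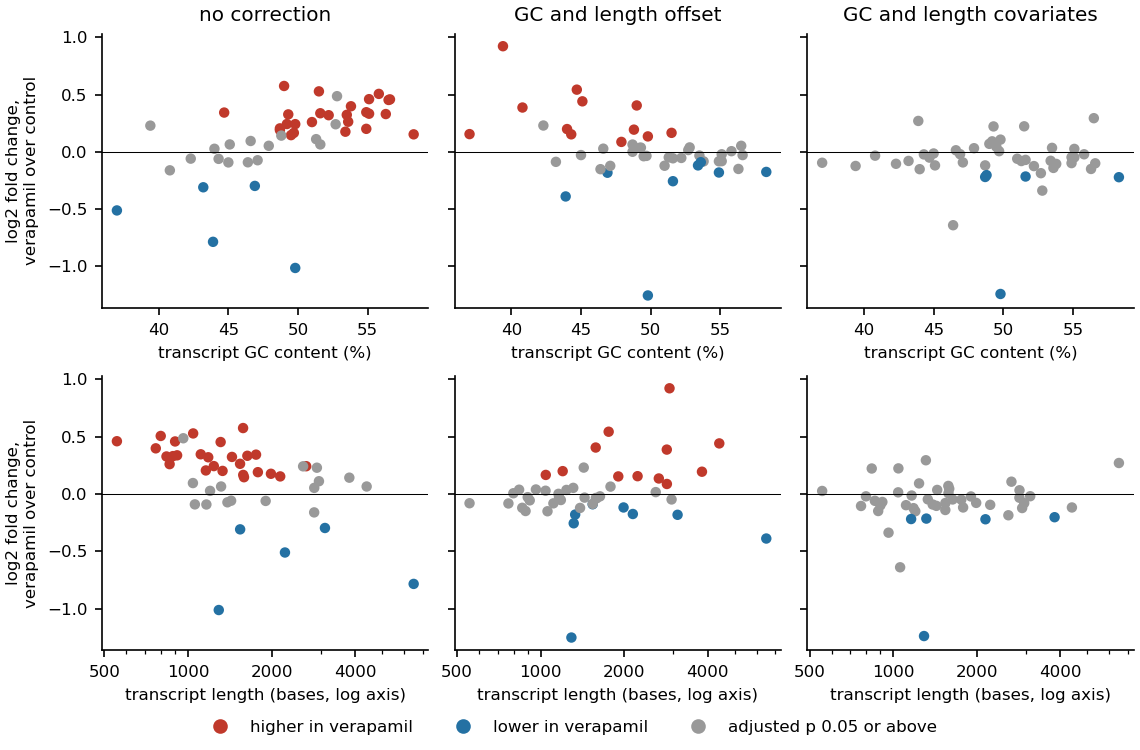
Log2 fold change of verapamil over control for the 47 genes against transcript GC content (top) and transcript length on a log axis (bottom), without correction, with the GC and length offset and with the covariates. Red and blue points rose and fell at an adjusted p under 0.05, 26 and 5 without correction, 12 and 8 with the offset, and 0 and 5 with the covariates.

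Genes around the proteasome were followed in 3 lists, each read beside the 31.2% higher and 31.6% lower over all genes tested. Of 9 measured genes of its transcriptional control, 4 (44.4%) were higher and none lower. Nfe2l1, which encodes the factor that drives proteasome genes, had 713, 835 and 909 CPM in verapamil libraries and 610, 637 and 681 CPM in control libraries. All 12 verapamil libraries were above every control library (log2 fold change 0.38 ± 0.03, edgeR adjusted p 1.51e-09). It was also higher with the offset (0.27, edgeR adjusted p 6.14e-08) and with the covariates (0.38, edgeR adjusted p 2.12e-07). Maff, Mafk and Mafg encode small Maf proteins, the DNA-binding partners of that factor. They were higher by 0.79, 0.55 and 0.20 on the log2 scale, with all 12 verapamil libraries above every control for Mafk and Mafg. Mafk also passed with the offset (0.32, edgeR adjusted p 3.06e-06) and the covariates (0.30, edgeR adjusted p 0.00156). Maff lost its call with the offset (0.44, edgeR adjusted p 0.0515) and the covariates (0.33, edgeR adjusted p 0.536). Mafg lost it with the offset (0.11, edgeR adjusted p 0.051) and kept it with the covariates (0.27, edgeR adjusted p 1.03e-05). Ddi2 and Ngly1, whose products are known to process and deglycosylate the Nfe2l1 protein, had log2 fold changes of -0.26 and -0.21 that did not pass (edgeR adjusted p 0.0656 and 0.0541). Nfe2l2, encoding the related factor NRF2, had -0.10 (edgeR adjusted p 0.313).

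Of 10 measured proteasome-associated genes, 4 (40.0%) were higher and 4 (40.0%) lower, shares near those over all genes. Zfand2a, a stress-inducible proteasome partner, was 1.43-fold higher (log2 0.51, edgeR adjusted p 6.54e-07). Its level exceeded all controls in 11 of 12 treated libraries, and it stayed higher with the offset (0.37) and the covariates (0.34, edgeR adjusted p 0.00267). Adrm1, the ubiquitin receptor Rpn13 of the base, rose by 0.43 on the log2 scale, but had 0.035 with the offset (edgeR adjusted p 0.456) and -0.014 with the covariates (edgeR adjusted p 0.912). Uchl5 and Usp14, the deubiquitinases that associate with the regulatory particle, fell by 0.61 and 0.51 on the log2 scale, and Ecpas, a proteasome adaptor, by 0.46. Ecpas had 0.019 with the offset (edgeR adjusted p 0.847) and 0.20 with the covariates (edgeR adjusted p 0.319). Uchl5 stayed lower with the offset (-0.26, edgeR adjusted p 0.011) and had -0.098 with the covariates (edgeR adjusted p 0.761). Usp14 had 115, 197 and 236 CPM in verapamil libraries and 249, 271 and 288 CPM in control libraries, so all 12 verapamil libraries lay below every control. With the offset, however, Usp14 had a log2 fold change of 0.25 (edgeR adjusted p 0.00404), and with the covariates -0.13 (edgeR adjusted p 0.424). Of 18 measured genes of ubiquitin supply and delivery, 11 (61.1%) were higher and 1 (5.56%) was lower. Rps27a, which encodes ubiquitin fused to a ribosomal protein, was higher by 0.61 on the log2 scale, and Uba1, the main ubiquitin-activating enzyme, by 0.51. Rps27a had 0.28 with the offset (edgeR adjusted p 0.00387) and 0.003 with the covariates (edgeR adjusted p 0.991). All 12 verapamil libraries were above every control for Uba1, which also passed with the offset (0.41, edgeR adjusted p 5.97e-09) and the covariates (0.24, edgeR adjusted p 0.00344). Uba6, the second activating enzyme, was the one lower gene, with 2.83, 8.15 and 28.7 CPM in verapamil libraries and 26.5, 29.2 and 34.1 CPM in control libraries (log2 fold change -1.09, edgeR adjusted p 0.0025). Uba6 stayed lower with the offset (-0.40, edgeR adjusted p 0.00546) and had 0.19 with the covariates (edgeR adjusted p 0.546).

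Promoters of 40 of the 47 genes were available from RefSeq on GRCm38.p6, and their 250 bases before the RefSeq start were searched on both strands. For some genes, part of these bases lies inside the gene as annotated in GENCODE M21. The core of the antioxidant response element that Nfe2l1 and Nfe2l2 bind, TGACNNNGC, was in 5 of 40 (12.5%), against 12.1% of the genes of the count table with a promoter and 10.1% of all promoters. It was in 2 of 20 genes higher in verapamil cells and in 3 of the 20 other ones. The CCAAT box (CCAAT) was in 13 (32.5%), against 36.3% and 34.5%. The ETS motif (CCGGAA) was in 18 (45.0%), against 23.2% of the genes of the count table and 12.2% of all promoters. Among genes higher in verapamil cells it was in 8 of 20, and among the other ones in 10 of 20. The motifs did not overlap each other in these promoters. A match is a description of letters and not a site. Psmb6 and Psmb5, with the 2 largest rises of the beta ring, were the higher genes that held the antioxidant element core, which Psmd9 and Psmd12, neither of which passed, held as well, and Psmg1, with the smallest adjusted p, held an ETS motif. Psmc6, which fell, held both, an ETS motif and an antioxidant element core that begins at base 227 before its start and lies outside the stretch shown. Their stretches before the start, on their own strand and outside the gene as annotated in GENCODE M21, are shown for these 4 genes with the matches in capitals.
Psmb6 (chr11:70525237-70525356, plus strand, 120 bases): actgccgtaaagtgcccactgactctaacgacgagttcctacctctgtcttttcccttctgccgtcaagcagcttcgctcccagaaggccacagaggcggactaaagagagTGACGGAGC
Psmb5 (chr14:54618023-54618115, minus strand, 93 bases): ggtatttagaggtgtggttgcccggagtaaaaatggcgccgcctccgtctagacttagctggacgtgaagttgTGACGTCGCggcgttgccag
Psmg1 (chr16:95990961-95991080, minus strand, 120 bases): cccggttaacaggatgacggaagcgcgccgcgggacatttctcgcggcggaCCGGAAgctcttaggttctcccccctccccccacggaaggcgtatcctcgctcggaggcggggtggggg
Psmc6 (chr14:45329704-45329787, plus strand, 84 bases): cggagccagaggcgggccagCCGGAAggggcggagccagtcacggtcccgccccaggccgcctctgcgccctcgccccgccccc

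Positions count from the RefSeq start, and the printed stretches of Psmb5 and Psmc6 end before it, where the annotated gene begins. In Psmb6 the match begins at base 9 before the start. Psmb5 lies on the minus strand and its match begins at base 47 before the start. The matches of Psmg1 and Psmc6 begin at bases 69 and 100 before the start. Pomp, the gene with the largest rise, had 3 ETS matches, beginning at bases 62, 48 and 11 before its RefSeq start, and Psme4, which fell, had 2, at bases 53 and 31. All 3 matches of Pomp and the match of Psme4 at base 31 lie inside the gene as annotated in GENCODE M21. The match of Psme4 at base 53 crosses the edge of the annotated gene. Genes that rose and genes that fell thus both held the ETS motif.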

How the data were processed

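RNA from 24 MIN6 libraries was sequenced, 12 with verapamil and 12 without. The authors trimmed reads (Trimmomatic 0.39), aligned them (HISAT2 2.1.0) and deposited whole-number counts per gene (HTSeq 0.9.1), after demultiplexing with bcl2fastq 2.20, per the submitters' processing notes. The deposited table also holds the authors' own comparison, with log2 fold changes, p-values and other scores, which was not used. The labels and the study's methods differ on library kit and RNA amount, and no source used here states the strand setting of HTSeq. The names of 4 columns fit more than 1 sample, so these columns entered as unnumbered members of their group, placed in set 4 by elimination.

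Counts were tested with edgeR 4.0.16 (R 4.3.3) quasi-likelihood fits with TMM factors, after filterByExpr (minimum count 10, minimum total 15), with Benjamini-Hochberg adjustment and a threshold of 0.05. Standard errors were the log2 fold change over the root of F. DESeq2 1.42.0 was an alternative. The GC and length offset used natural splines of 4 degrees of freedom on the reference transcript of each gene (GENCODE M21, GRCm38), a choice made after results with means over all transcripts had been seen. Copies were found with blastn 2.17.0 (90% identity over 300 or more bases). The test was checked on simulated counts of independent libraries, without experiment sets and without a trend with GC content or length. That check therefore does not cover these features of the data. Tables and figures used Python 3.11.15, pandas 2.3.3, numpy 2.4.6, scipy 1.17.1 and matplotlib 3.10.9.

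The genes and lists were chosen with earlier results of these data known. Every gene matched by symbol is reported, with values per library for the highest and lowest log2 fold change of each class, the inducible subunits, the activators and Pomp, and up to 4 called genes with the largest change per surrounding list plus Nfe2l1. The values of 1 listed gene are not reported here. Adrm1, Irf1, Ddi2, Ngly1, Nfe2l2 and Mlx were named after their values had been seen. Promoter sequences are from RefSeq (GRCm38.p6), with chromosome 18 left out. The spread between libraries, beyond counting error (lowest chi-square over its degrees of freedom between libraries of a group, 5.72), limits the precision. The p-values cover that spread only as far as the libraries are separate samples.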

Additional observations from a re-analysis of the deposited data

Results flagged for a closer look

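The effect of verapamil differed between the 4 experiment sets for 4 of the 47 genes, by an edgeR test of the interaction of set and treatment adjusted over all genes tested. The adjusted p by this edgeR test was 0.00829 for Psmc6, 0.0164 for Psme4, 0.0388 for Psmd1 and 0.0485 for Psmd14. The same test passed for 9.72% of all genes, a share near that among the 47 genes. In each of the 4 genes the fall was larger in sets 2 and 3 than in sets 1 and 4. The mean correlation of verapamil libraries with transcript GC content was also higher in sets 2 and 3 (0.57 and 0.58) than in sets 1 and 4 (0.20 and 0.17), and its part in the differences between sets was not tested.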

How the results depend on the processing

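Of the 47 genes, 26 were higher and 5 lower. DESeq2 gave 27 and 5, relative log expression factors 26 and 5, no filter 26 and 5, library totals 22 and 5, and pseudogene counts added 26 and 5. The experiment set as a replicate block gave 28 and 5, and the replicate number as a replicate block 23 and 5. Numbers did not pair the libraries: 2 of 10 numbered pairs had a correlation over 0.1, and 1 of 10 verapamil libraries was closest to the control of its own number. Leaving out each library in turn gave 22 to 29 higher and 5 to 6 lower, with 7 to 10 core particle and 7 to 10 base and lid subunits higher. Psma1 ranged from -0.012 to 0.046 over these fits.

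Counts summed per set gave 1 lower and 5 base and lid subunits higher. Without set 2, 15 genes were higher and 2 lower, with 4 base and lid subunits higher. Set 1 alone gave 5 higher and 1 lower (core particle 0, base and lid 2), set 3 alone 12 higher (core particle 5, base and lid 2), and set 4 alone 0 higher and 0 lower (core particle 0, base and lid 0), each with fewer libraries. The GC and length offset gave 12 higher and 8 lower (core particle 4, base and lid 3), with the same counts when the offset was fitted with the replicate block. The covariates gave 0 higher, 0 in the core particle and 0 in base and lid. By an unadjusted edgeR p under 0.05, set 4 alone had 3 higher and the covariates 1. Further fits, chosen after seeing the data, used means over all transcripts. The offset then gave 11 higher and 11 lower (core particle 4, base and lid 2), and the covariates 0 higher (0 and 0). The other additions chosen after seeing the data were the pseudogene counts, the Psme2 and Psme2b sum, and the fits without 1 library.

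Log2 fold changes changed sign with the GC and length offset for Psma7 -0.056, Psma3 0.39, Psmb5 -0.028, Psmb3 -0.083, Psmb4 -0.053, Psmb2 -0.12, Psmc3 -0.021, Psmc4 -0.032, Psmd4 -0.18, Psmc1 -0.038, Psmd2 -0.048, Psmc5 -0.26, Psmc6 0.15, Psmd8 -0.09, Psmd13 -0.12, Psmd7 -0.035, Psmd3 -0.17, Psmd12 0.15, Psme1 -0.082, Psmg4 -0.081, Psmg3 -0.15 and Psmd10 0.23. The offset with the replicate block gave Psma7 -0.057, Psma3 0.38, Psmb5 -0.027, Psmb3 -0.083, Psmb4 -0.053, Psmb2 -0.12, Psmb7 -0.002, Psmc3 -0.022, Psmc4 -0.033, Psmd4 -0.18, Psmc1 -0.039, Psmd2 -0.048, Psmc5 -0.26, Psmc6 0.15, Psmd8 -0.089, Psmd13 -0.12, Psmd7 -0.035, Psmd3 -0.18, Psmd12 0.15, Psme1 -0.082, Psmg4 -0.084, Psmg3 -0.15 and Psmd10 0.23. With the covariates they changed sign for Psma7 -0.07, Psma2 -0.12, Psma1 -0.15, Psmb6 -0.021, Psmb5 -0.10, Psmb3 -0.10, Psmb1 -0.05, Psmb4 -0.12, Psmb2 -0.06, Psmb7 -0.22, Psmc3 -0.048, Psmd4 -0.047, Psmc2 -0.12, Psmd2 -0.08, Psmc5 -0.21, Psmd8 -0.14, Psmd13 -0.078, Psmd3 -0.22, Psme2 -0.34, Psme1 -0.098, Psme4 0.27, Psmf1 -0.20, Psmg3 -0.15, Psmd9 -0.19 and Psmd5 -0.12. In set 1 alone they changed sign for Psma3 0.031, Psmc5 -0.006, Psmd3 -0.036, Psmd12 0.019 and Psmd5 -0.11, in set 3 alone for Psma6 -0.084 and Psmd11 -0.023, and in set 4 alone for Psma4 0.27, Psma3 0.015, Psmd2 -0.046, Psmd12 0.099, Psmd6 0.082, Psme2b -0.088 and Psmd10 0.33. Psma1 had -0.002 with library totals, -0.003 with the replicate number as a replicate block and -0.001 without the ambiguous columns. Without set 3, Psmd12 had 0.005 and Psmd5 -0.006, and without set 1, Psmd10 had 0.003. The causes of these changes of sign were not tested. With the offset, the median log2 fold change was -0.076 for all genes tested and -0.028 for the 47 genes. Several of the sign changes with the offset, such as those of Psma7, Psmb5 and Psmc3, were smaller than that shift of all genes. Depth limits Psmc3ip most, with 2 to 88 counts per library.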
